A study of Homo sapiens with 9 samples.

Results

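The genes described here are 54 genes of the actin cytoskeleton and of focal adhesions, listed by gene name and known function. Their RNA was measured in HT1080, an established human fibrosarcoma cell line, on 9 Affymetrix arrays in 3 groups of 3 biological replicates. MTAP-negative cells lacked methylthioadenosine phosphorylase, the enzyme that returns the methylthioadenosine made in polyamine synthesis to the methionine and adenine pools. MTAP-positive cells of the same line had the enzyme, and the third group was MTAP-positive cells kept for their last 48 hours in 10 µM MT-DADMe-ImmA, a compound that blocks MTAP. No MTAP-negative culture received the inhibitor, so an action of the compound through MTAP and one through another target cannot be told apart. How the MTAP-positive cells were made, and whether they were 1 clone or a pool, were not given in the sources used here. In such bulk RNA, fewer cells of a kind and less RNA per cell cannot be told apart. Of the 54 genes, 49 had values, from 102 of their 168 annotated probe sets, and 45 were bright enough to be tested, among 7011 tested genes in all.

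Actin monomers assemble into polar filaments that push the membrane forward, and myosin pulls on bundles of these filaments to make tension. Small GTPases switch these activities on through kinases and formins, and cofilin and gelsolin take filaments apart. Focal adhesions are plaques in which talin, vinculin, zyxin and their partners join the filament ends to integrins and so to the matrix. Some of these genes are known targets of serum response factor (SRF), which binds the CArG box and whose cofactor MRTF is held back by free actin monomers. HT1080 is often used to study migration and invasion.

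Of 8 mesenchymal markers, 5 had values, with vimentin (VIM) between 13.82 and 14.07 on every array on the log2 scale. The mesenchymal markers NT5E, S100A4 and THY1 had no value. The defining epithelial markers CDH1 and EPCAM, the muscle markers DES, MYH11 and CNN1, the blood marker PTPRC and all 4 endothelial markers had no value in the deposited table. KRT18, at 12.10 to 12.61, was the brighter of the 2 epithelial markers with values, and ACTA2 and SMTN were the 2 muscle markers of 9. Of 6 blood markers, LCP1 and CORO1A had values, at 9.60 to 10.28 and at 5.57 to 7.14. Some of these markers moved with the groups: in the order MTAP-negative, MTAP-positive and inhibitor-treated, the group means were 9.74, 9.88 and 10.19 for LCP1, 6.97, 6.81 and 5.87 for CORO1A, 9.97, 10.34 and 10.36 for ACTA2 and 10.12, 9.86 and 9.81 for SMTN. In the same order they were 12.50, 13.06 and 13.05 for mesenchymal SPARC, 10.20, 10.40 and 10.70 for mesenchymal CDH2 and 9.76, 10.12 and 9.73 for epithelial KRT8. The CORO1A mean of 5.87 lay under log2 6.64, the level that every deposited probe set reached on at least 3 arrays. Its fall is therefore not a measured fold. The part of these markers in the changes given here was not tested. MTAP, the targeted gene, read 3.86 to 5.02 on the MTAP-negative arrays and 11.10 to 11.74 on all others over its 2 probe sets. RNA quality differed between the groups. The log2 signal of the 5′ control probe set of ACTB minus that of the 3′ one, which is more negative where the RNA is more degraded or less fully copied, was -3.52 to -1.81 on the MTAP-negative arrays, -1.92 to -1.03 on the MTAP-positive arrays and -2.09 to -0.88 with the inhibitor, and MTAP-negative replicate 3 was the lowest.

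MTAP-positive cells had more RNA than MTAP-negative cells for 5 of the 45 tested genes, and less for 1. The 5 were zyxin (ZYX), talin (TLN1), the filament elongation factor VASP, the GTPase RHOB and the severing protein gelsolin (GSN), with log2 changes of 0.40 to 0.83. The kinase ROCK2 fell by 0.81. These calls, at a Benjamini-Hochberg adjusted p below 0.05 over all tested genes in limma, were 11.1% of the 45 genes for higher and 2.22% for lower, where all genes gave 11.7% and 7.36%, and 19.1% in either direction. After each array was centred on its median, 43.4% of the calls over all genes were higher in place of 61.4%, and the 45 genes gave 4 higher and 1 lower, beside 8.59% and 11.2% of all genes. The median change of the 45 genes was 0.17 against 0.01 over all genes, with 31 positive and 14 negative. The arrays of the groups did not overlap for 12 genes higher and 2 lower, or 26.7% and 4.44%, beside 19.5% and 15.7% of all genes, 35.2% in either direction.

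Arrays with the same replicate number deviated together in this comparison, and with the replicate as a block 9 genes were higher and 1 lower, where all genes gave 16.2% and 11.1%, and 27.3% in either direction. The block added ARPC1B (0.34 ± 0.11 SE), MYH9 (0.33 ± 0.10), CNN2 (0.40 ± 0.10) and ACTN4 (0.44 ± 0.12), at adjusted p of 0.0439, 0.0358, 0.0164 and 0.0260. With the 5′ minus 3′ difference of ACTB in the limma fit as a covariate, 0 of the 45 genes were called, beside 6.70% of all genes (4.85% higher and 1.85% lower), and 2 higher and 1 lower had an unadjusted p below 0.05, as had 14.3% and 9.53% of all genes. The part of RNA quality in these changes was otherwise not tested. Without MTAP-negative replicate 2 or 3, MTAP-positive replicate 1 or inhibitor-treated replicate 3, the genes called numbered 1, 2, 2 and 3. Of all genes 12.5%, 10.6%, 14.2% and 14.7% were called then, down from 19.1% with all arrays. The 2 genes without MTAP-positive replicate 1 were ZYX and EZR, and EZR was not called with all arrays.

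With the inhibitor, 4 genes were lower than in untreated MTAP-positive cells and none was higher in limma. They were the myosin light chain MYL9, the GTPase RHOB, the Arp2/3 subunit ARPC5 and the formin DIAPH3, with changes of -0.78 to -0.47. The 4 genes were 8.89% of the 45, where 8.50% of all genes were called lower, 6.36% higher and 14.9% in either direction. At an unadjusted p below 0.05 the counts were 0 higher and 11 lower, beside 13.5% and 16.9% of all genes. The median change was -0.16 against -0.02 over all genes, with 11 positive and 34 negative. Arrays did not overlap for 16 genes lower and 2 higher, which was 35.6% and 4.44% of the 45, beside 20.2% and 16.2% of all genes, 36.4% in either direction.

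The replicate numbers paired these arrays too, and the block gave 8 lower and 0 higher, beside 12.3% and 10.3% of all genes, 22.7% in either direction. It added DIAPH1 (-0.36 ± 0.10, adjusted p = 0.0306), TPM2 (-0.42 ± 0.10, 0.0169), CNN2 (-0.43 ± 0.10, 0.0144) and TES (-0.39 ± 0.11, 0.0334). Without MTAP-positive replicate 1, 2 genes were called, and without inhibitor-treated replicate 3, 1, where the calls over all genes fell to 9.51% and 5.31%.

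Inhibitor-treated MTAP-positive cells differed from MTAP-negative cells in 11 of the 45 genes. ZYX, GSN, the crosslinker ACTN4, the elongation factor EVL and the membrane linker moesin (MSN) were higher. DIAPH3, ezrin (EZR), the cofilin CFL2, ARPC5, the adhesion protein TES and beta-actin (ACTB) were lower. The shares were 11.1% higher and 13.3% lower, below the 19.3% and 18.0% over all genes, of which 37.3% were called in either direction. The median change was -0.05 against -0.00 over all genes. Arrays did not overlap for 7 genes higher and 12 lower, 15.6% and 26.7%, beside 27.3% and 27.4% of all genes, 54.6% in either direction. Centring the arrays gave 4 higher and 9 lower, beside 16.4% and 22.3% of all genes. Without inhibitor-treated replicate 1, 2 or 3, 6, 7 and 7 genes were called, beside 28.9%, 28.9% and 26.3% of all genes. The 3 comparisons share arrays pairwise, so their values are set side by side and not compared as independent.

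**Figure D1:**
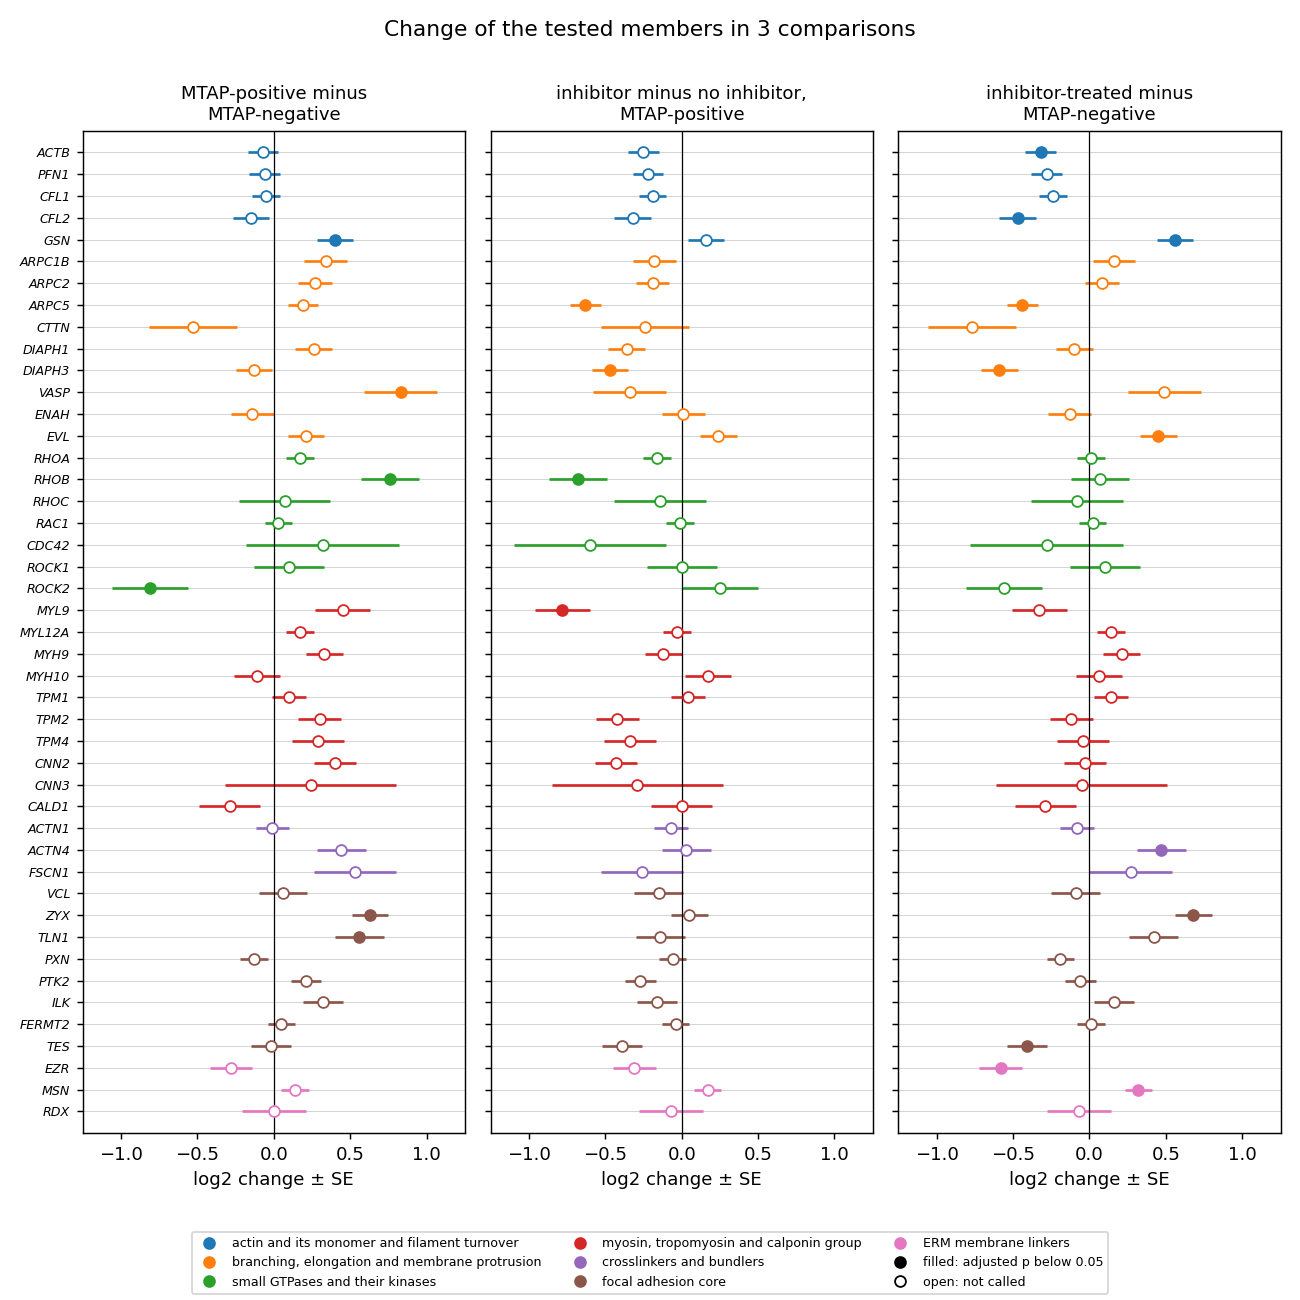
Log2 change (x axis) of each of the 45 tested genes (y axis, coloured by role) in the 3 comparisons, with bars for the standard error; filled points passed an adjusted p of 0.05 in limma. Filled points number 6, 4 and 11 from left to right and lie between -0.81 and 0.83.

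Among actin and its turnover factors, 5 of 9 genes were tested. Beta-actin (ACTB) was near the top of the scale, at 14.27, 14.14 and 14.32 on MTAP-negative arrays, 14.20, 14.19 and 14.12 on MTAP-positive arrays and 13.89, 14.05 and 13.82 with the inhibitor. The inhibitor arrays were the lowest and did not overlap the others. ACTB was -0.32 ± 0.10 against MTAP-negative cells (adjusted p = 0.0259) and -0.25 ± 0.10 against untreated cells (0.115). The first call was lost without MTAP-negative replicate 1 or 3 or inhibitor-treated replicate 1 or 3 (0.0711 to 0.105). Gamma-actin (ACTG1) could not be read apart from ACTB, because its 9 probe sets with values are annotated to both, and none of these was called in limma in any comparison, with 0, 2 and 1 at an unadjusted p below 0.05, where 31.8%, 26.9% and 42.2% of all probe sets were. Their changes were -0.06 to 0.15 between MTAP-positive and MTAP-negative cells, -0.28 to -0.12 with the inhibitor, and -0.24 to -0.06 for inhibitor-treated against MTAP-negative cells.

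Gelsolin (GSN), which severs and caps filaments, read 8.66, 8.62 and 8.51 without MTAP, 9.05, 8.94 and 9.02 with it, and 9.01, 9.40 and 9.06 with the inhibitor. Both MTAP-positive groups lay above every MTAP-negative array. The changes were 0.40 ± 0.12 (adjusted p = 0.0373) and 0.56 ± 0.12 (0.00410), and the second passed in all 20 alternatives run, which changed the filter, the scaling, the model or the arrays used. The first was lost when any of 6 arrays was left out (0.0551 to 0.114): MTAP-negative replicate 1, 2 or 3, MTAP-positive replicate 1 or 3, or inhibitor-treated replicate 3. It was also lost when arrays were centred (0.0681), after a renewed quantile normalisation (0.0685) and when every probe set was tested (0.0520). The cofilin CFL2, which severs aged filaments, read 10.61, 10.98 and 10.57, then 10.57, 10.63 and 10.51, and with the inhibitor 10.28, 10.24 and 10.22. The inhibitor arrays were the lowest, at -0.47 ± 0.12 against MTAP-negative cells (0.0102), again in all 20 alternatives. Cofilin CFL1 and profilin PFN1, which feeds monomers to growing ends, were -0.24 ± 0.09 and -0.28 ± 0.10 in that comparison at adjusted p of 0.0508 and 0.0507. The cofilin kinases LIMK1 and LIMK2 were too dim for the test; without a further filter LIMK1 was 0.47 ± 0.17 in MTAP-positive cells (0.0863). CAPG had no value.

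Of 9 genes of filament branching and elongation, all were tested. ARPC5, a subunit of the Arp2/3 complex that starts branches, read 10.96, 11.08 and 10.99 without MTAP, 11.31, 11.24 and 11.04 with it and 10.64, 10.61 and 10.46 with the inhibitor. The inhibitor arrays were below all others. The change with the inhibitor was -0.63 ± 0.10 (adjusted p = 0.00467), a 1.54-fold difference that passed in all 20 alternatives (0.00163 to 0.0319). Against MTAP-negative cells it was -0.44 ± 0.10 (0.00790), lost at the mean of its probe sets (0.247), where the dimmer probe set gave 0.00 ± 0.22. The other Arp2/3 genes ARPC1B and ARPC2 were 0.34 ± 0.14 and 0.27 ± 0.11 in MTAP-positive cells and -0.18 ± 0.14 and -0.19 ± 0.11 with the inhibitor, and did not pass.

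The formin DIAPH3, which elongates unbranched filaments, read 9.94, 9.94 and 10.15 without MTAP, 9.68, 10.10 and 9.87 with it, and 9.36, 9.49 and 9.40 with the inhibitor. Only the inhibitor arrays stood apart, at -0.47 ± 0.12 against untreated cells (adjusted p = 0.0298) and -0.59 ± 0.12 against MTAP-negative cells (0.00385). The first was lost without MTAP-positive replicate 2 or 3 or any 1 of the inhibitor-treated arrays (0.0599 to 0.108). DIAPH1, a formin that RHOA opens, was -0.36 ± 0.12 with the inhibitor (0.0761).

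VASP, which protects growing ends and was 0.83 ± 0.24 higher with MTAP (adjusted p = 0.0346), read 8.81, 8.00 and 7.78, then 9.16, 9.13 and 8.79, and with the inhibitor 8.80, 8.80 and 8.46. MTAP-negative replicate 1 lay just above the lowest MTAP-positive array, so the groups overlapped. The call was lost without MTAP-negative replicate 2 or 3 or MTAP-positive replicate 1 or 2 (0.0646 to 0.113), with only the 2 groups in the fit (0.0667) and with array weights (0.0978). EVL, of the same family, read 8.16, 8.43 and 8.12, then 8.51, 8.29 and 8.53, and then 8.72, 8.80 and 8.53. It was 0.45 ± 0.12 higher in inhibitor-treated than in MTAP-negative cells (0.0154), lost without MTAP-negative replicate 1 or 3 or inhibitor-treated replicate 1 or 2 (0.0504 to 0.0607). ENAH, the third member, was between -0.14 and 0.01 in the 3 comparisons.

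Of the 5 GTPases listed, RHOB, an early-response member that sits on endosomes, was the one called at its brightest probe set. It read 9.12, 9.04 and 9.26 without MTAP, 10.07, 10.18 and 9.45 with MTAP, and 9.11, 9.51 and 9.02 with the inhibitor. MTAP-positive replicate 3 was the lowest of its group and lay under the highest inhibitor array. The change was 0.76 ± 0.19 between MTAP-positive and MTAP-negative cells (adjusted p = 0.0228), -0.68 ± 0.19 after inhibitor treatment (0.0381), and 0.07 ± 0.19 for treated against MTAP-negative cells (0.799). The first 2 values share the MTAP-positive arrays. The first was lost without MTAP-negative replicate 1 or 2 or MTAP-positive replicate 1 or 2 (0.0502 to 0.0738) and with array weights (0.0959). The second was lost without MTAP-negative replicate 1 or 2, MTAP-positive replicate 1 or 2, or inhibitor-treated replicate 1 or 3 (0.0541 to 0.152), with the ACTB covariate (0.0520), when every probe set was tested (0.0581), with only the 2 groups in the fit (0.0737) and with array weights (0.0972). The 250 bases before the RHOB start (RefSeq, GRCh38.p14, chr2:20446824-20447073, plus strand) are printed because RHOB passed the test in both of these comparisons, with CCAAT, or ATTGG where it lies on the other strand, in capitals:
RHOB: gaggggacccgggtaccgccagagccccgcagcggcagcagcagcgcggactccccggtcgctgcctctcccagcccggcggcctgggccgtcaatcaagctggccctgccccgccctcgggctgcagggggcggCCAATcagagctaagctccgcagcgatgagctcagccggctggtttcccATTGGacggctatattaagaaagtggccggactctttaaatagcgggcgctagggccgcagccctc

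RHOA, the GTPase that starts stress fibres, read 12.57, 12.65 and 12.48, then 12.84, 12.74 and 12.63, and with the inhibitor 12.59, 12.59 and 12.55. These brightest values of RHOA differed by 0.17 ± 0.09, -0.16 ± 0.09 and 0.01 ± 0.09, and none passed. At its other probe set, 1555814_a_at, RHOA read 10.39, 10.20 and 9.97 without MTAP, 11.17, 11.28 and 10.48 with it and 10.65, 10.98 and 10.44 with the inhibitor. Every MTAP-positive array lay above the MTAP-negative ones there, and the change of 0.79 ± 0.22 passed (adjusted p = 0.0426), as did the mean of both probe sets (0.48, 0.0357). RHOC read 11.70, 11.23 and 10.35, then 11.51, 10.81 and 11.15, and then 11.23, 10.82 and 11.00, with changes of 0.07, -0.14 and -0.08 at an SE of 0.30. RAC1, which drives lamellipodia, was 12.34, 12.36 and 12.50, then 12.48, 12.35 and 12.48, and then 12.44, 12.48 and 12.36, with changes of 0.03, -0.01 and 0.02 at an SE of 0.09. CDC42, which drives filopodia, was 10.76, 11.11 and 10.25, then 10.51, 12.34 and 10.21, and then 10.16, 11.13 and 9.97. Replicate 2 was the highest in each group, and the changes of 0.32, -0.60 and -0.28 at an SE of 0.50 did not pass. At 208728_s_at CDC42 read 9.47, 9.60 and 9.60, then 9.36, 8.86 and 9.12, and then 8.90, 8.72 and 8.88, which was -0.72 ± 0.13 for inhibitor-treated against MTAP-negative cells (adjusted p = 0.00359). The order of levels between these genes cannot be read, since each probe set has its own brightness.

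ROCK2, which phosphorylates the myosin phosphatase and LIM kinases, read 8.72, 9.05 and 9.04 without MTAP, 7.52, 8.42 and 8.44 with it and 7.98, 8.48 and 8.68 with the inhibitor. All MTAP-negative arrays lay above the others. The change of -0.81 ± 0.25 (adjusted p = 0.0473) was lost in 11 of 19 alternatives, among them leaving out any 1 of 7 arrays (0.0532 to 0.133): each MTAP-negative array, MTAP-positive replicate 1 or 3, and inhibitor-treated replicate 2 or 3. ROCK1 was 0.10 ± 0.23.

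**Figure D2:**
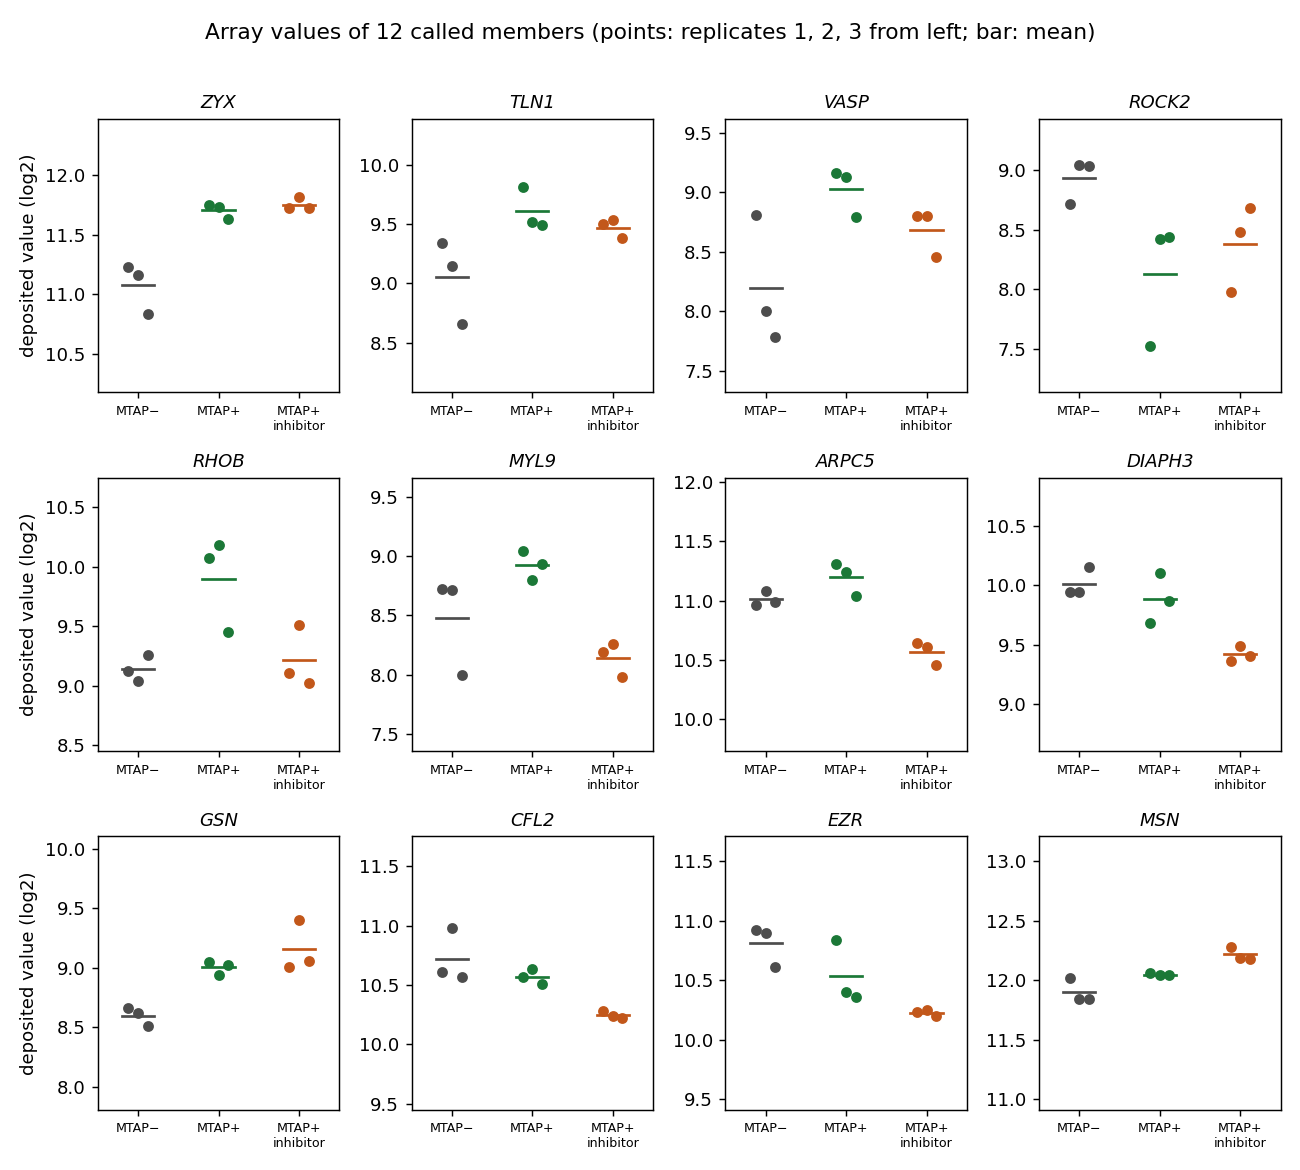
Deposited log2 value (y axis) on each of the 9 arrays for 12 genes, by group (x axis), with each array as a point and a bar at the group mean. ZYX and GSN are higher in both MTAP-positive groups, ARPC5, CFL2 and DIAPH3 are lower with the inhibitor, and RHOB is high on 2 of 3 untreated MTAP-positive arrays.

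MYL9, the regulatory light chain whose phosphorylation switches on contraction, was 8.72, 8.71 and 8.00 without MTAP, 9.04, 8.80 and 8.93 with it, and 8.19, 8.26 and 7.98 with the inhibitor. The MTAP-positive arrays were the highest. The change with the inhibitor was -0.78 ± 0.18 (adjusted p = 0.0190), lost without MTAP-positive replicate 1 or inhibitor-treated replicate 3 (0.0568 and 0.0883), and the change with MTAP was 0.45 ± 0.18 (0.112). Of the 10 tested genes of myosin, tropomyosin and calponin, 8 were positive with MTAP at a median of 0.27. Of these 10, 0 were called in limma with MTAP and 3 had an unadjusted p below 0.05, as had 34.6% of all genes. With the inhibitor 7 were negative at a median of -0.21. Of all 7010 genes, 3655 were positive with MTAP and 3720 were negative with the inhibitor. The myosin heavy chains MYH9 and MYH10 were 0.33 ± 0.12 and -0.11 ± 0.15 with MTAP.

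Tropomyosins coat filaments and set which proteins reach them. At its brightest probe set TPM1 read 11.23, 11.55 and 11.32, then 11.54, 11.32 and 11.55, and with the inhibitor 11.50, 11.50 and 11.51, with no group apart. TPM2 read 11.26, 11.13 and 11.11, then 11.70, 11.18 and 11.52, and then 11.20, 10.91 and 11.02. TPM4 read 9.95, 10.32 and 10.13, then 10.57, 10.70 and 10.02, and then 10.04, 10.24 and 9.99. With MTAP they were 0.10 ± 0.11, 0.30 ± 0.14 and 0.29 ± 0.17, and with the inhibitor 0.04 ± 0.11, -0.42 ± 0.14 and -0.34 ± 0.17. The dimmer probe set of TPM2, 212654_at, was called between MTAP-positive and MTAP-negative cells when probe sets were tested on their own. The size and direction of that change are not given here. No probe set of TPM3 was listed in the annotation table, so it was not analysed here. The calponin CNN2, which steadies filaments, had 0.40 ± 0.14 with MTAP and -0.43 ± 0.14 with the inhibitor, at adjusted p of 0.0677 and 0.0627. CNN3 was 10.81, 12.11 and 9.21, then 10.67, 11.54 and 10.65, and then 10.87, 10.48 and 10.63, a spread of SE 0.56 that no difference passed at this probe set. At 201445_at CNN3 was 0.44 ± 0.14 in inhibitor-treated against MTAP-negative cells (adjusted p = 0.0348). CALD1 was -0.29 ± 0.20 with MTAP. TAGLN was below the filter, and without a further filter it was -0.25 ± 0.12 with MTAP (limma adjusted p = 0.169). In inhibitor-treated against MTAP-negative cells TAGLN was -0.31 ± 0.12 (0.0620).

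Of 35116 promoter windows of 300 bases in the RefSeq table, 1.29% held a CArG box on either strand. Of the 82 windows of the 45 listed genes that had a window, 7 did, or 8.54%. The 7 genes with a box were ACTG1, ACTN1, CNN2, FLNA, ROCK2, TES and TPM4. These 45 are not the 45 tested genes, and include ACTG1 and FLNA. Because the list was made by known function and holds known SRF targets, its share is not independent of that choice. The TEAD motif GGAATG was in 15.9% of the members' windows and 14.0% of all, and the CCAAT box in 32.9% and 34.6%, on either strand. For 5 genes whose values are given here, the CArG box is printed in capitals with up to 20 bases of the window on either side, and the strand follows the coordinates. In TES the box overlaps GGAATG. ROCK2 is on chr2:11345481-11345530 (minus), TES on chr7:116222703-116222740 (plus), ACTN1 on chr14:68977708-68977757 (minus), CNN2 on chr19:1026499-1026548 (plus) and TPM4 on chr19:16067345-16067394 (plus).
ROCK2: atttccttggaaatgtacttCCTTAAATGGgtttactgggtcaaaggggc
TES: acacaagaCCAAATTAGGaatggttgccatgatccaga
ACTN1: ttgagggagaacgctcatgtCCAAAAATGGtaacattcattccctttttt
CNN2: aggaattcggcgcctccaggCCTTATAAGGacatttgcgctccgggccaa
TPM4: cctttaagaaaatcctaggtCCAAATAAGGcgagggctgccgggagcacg
With MTAP the 5 carriers did not share a direction: TPM4 and CNN2 were 0.29 ± 0.17 and 0.40 ± 0.14, ACTN1 -0.01 ± 0.11, TES -0.02 ± 0.13 and ROCK2 -0.81 ± 0.25. With the inhibitor ROCK2 was 0.25 ± 0.25, and TPM4, CNN2, ACTN1 and TES were -0.34, -0.43, -0.07 and -0.39, none of them called. In inhibitor-treated against MTAP-negative cells all 5 were negative, and only TES was called. ROCK2 was -0.56 ± 0.25, TES -0.41 ± 0.13, ACTN1 -0.08 ± 0.11, TPM4 -0.04 ± 0.17 and CNN2 -0.03 ± 0.14. Of all 7010 genes, 3514 were negative there. A match is a description of the letters and not a site of binding.

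Of the crosslinkers, alpha-actinin ACTN4, which bundles stress fibres, read 11.72, 11.39 and 11.07, then 12, 11.71 and 11.79, and with the inhibitor 11.96, 11.74 and 11.89. It was 0.47 ± 0.16 higher in inhibitor-treated than in MTAP-negative cells (adjusted p = 0.0392), lost without MTAP-negative replicate 2 or 3, MTAP-positive replicate 3 or any inhibitor-treated array (0.0534 to 0.134), and when every probe set was tested (0.0554). With MTAP it was 0.44 ± 0.16 (0.0773). Fascin (FSCN1), which bundles filopodia, was 0.53 ± 0.27 with MTAP, and ACTN1 -0.01 ± 0.11. FLNA, as TPM3, was not analysed here.

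In the focal adhesion core, ZYX, the zyxin that gathers at tension sites, was the gene with the smallest adjusted p of the 45 in MTAP-positive against MTAP-negative cells. It read 11.23, 11.16 and 10.83 without MTAP, 11.75, 11.73 and 11.63 with it and 11.72, 11.82 and 11.72 with the inhibitor, so both MTAP-positive groups lay above all MTAP-negative arrays. The change was 0.63 ± 0.12 (adjusted p = 0.00517), a 1.55-fold difference, and 0.68 ± 0.12 (0.00146) with the inhibitor present, and 0.05 ± 0.12 between these groups. It was kept without each array in turn and lost only with the ACTB covariate, at 0.44 and 0.0598. TLN1, the integrin activator talin, read 9.34, 9.15 and 8.66, then 9.81, 9.52 and 9.49, and then 9.50, 9.53 and 9.38. At 0.56 ± 0.16 (0.0401) with MTAP it was lost without any of 7 arrays (0.0567 to 0.110): MTAP-negative replicate 2 or 3, MTAP-positive replicate 1 or 3, or any inhibitor-treated array. It was also lost when every probe set was tested (0.0562) and with only the 2 groups in the fit (0.0854).

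TES, a zyxin-binding LIM protein, read 10.97, 11.19 and 10.65, then 10.86, 11.07 and 10.82, and with the inhibitor 10.53, 10.52 and 10.53. The inhibitor arrays lay below the others, at -0.41 ± 0.13 against MTAP-negative cells (adjusted p = 0.0346) and lost without MTAP-negative replicate 1 or 2 or any inhibitor-treated array (0.0809 to 0.112) and at the mean of its probe sets (0.0762). Of the others, vinculin (VCL), paxillin (PXN), kindlin-2 (FERMT2) and integrin-linked kinase (ILK) were between -0.13 and 0.32 with MTAP and between -0.16 and -0.04 with the inhibitor. PARVA was under the filter; without a further filter it was -0.46 ± 0.12 in inhibitor-treated against MTAP-negative cells (0.0142). LIMS1 had no value. With the inhibitor 7 of the 8 tested genes of the core were negative, at a median of -0.15. Of the 8, 0 were called in limma and 2 were lower at an unadjusted p below 0.05. Over all 7010 genes the median was -0.02 and 3720 were negative. Of these 7010, 8.50% were called lower and 16.9% were lower at that unadjusted p.

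The membrane linkers ezrin and moesin went opposite ways. EZR read 10.92, 10.90 and 10.61, then 10.84, 10.40 and 10.36, and with the inhibitor 10.23, 10.25 and 10.20, and MSN read 12.02, 11.84 and 11.84, then 12.06, 12.04 and 12.04, and then 12.28, 12.19 and 12.18. EZR was the lowest, and MSN the highest, on the inhibitor arrays. Against MTAP-negative cells EZR was -0.58 ± 0.14 (adjusted p = 0.00865) and MSN 0.32 ± 0.09 (0.0215). The EZR call was lost at the mean of its probe sets (0.0937). The MSN call was lost when arrays were centred (0.0521) and without MTAP-negative replicate 2 or 3 or any inhibitor-treated array (0.0527 to 0.0813). Radixin (RDX) was -0.07 ± 0.21.

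**Figure D3:**
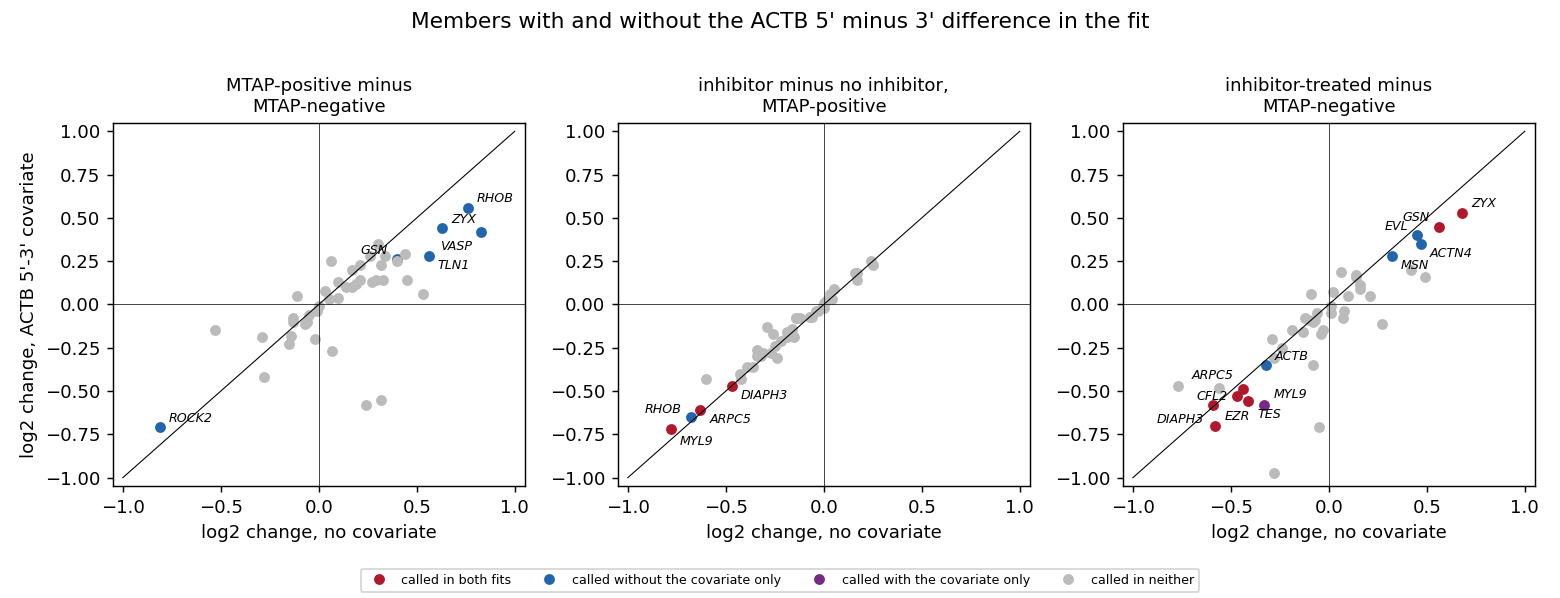
Log2 change of the 45 genes without (x axis) and with (y axis) the ACTB 5′ minus 3′ difference in the fit, for the 3 comparisons, with a line of equal values. In the first panel none of the 6 called genes keeps its call, and the median change goes from 0.17 to 0.10.

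With the ACTB covariate, 40 of 45 genes kept their sign between MTAP-positive and MTAP-negative cells, and the median SE went from 0.13 to 0.17. VASP went from 0.83 to 0.42, TLN1 from 0.56 to 0.28 and RHOB from 0.76 to 0.56, at adjusted p of 0.287, 0.335 and 0.175. GSN and ROCK2 were 0.26 and -0.71 (0.284 and 0.223). In the inhibitor comparison MYL9, ARPC5 and DIAPH3 kept their calls, at 0.0136, 0.00965 and 0.0458, where 6.95% of all genes were lower and 5.02% higher. In the comparison of inhibitor-treated with MTAP-negative cells, 8 genes were called, 2 higher and 6 lower, where all genes gave 15.1% and 13.3%, 28.4% in all. MYL9 joined them, and ACTB, EVL, ACTN4 and MSN lost their calls (0.0585, 0.0721, 0.180 and 0.0954).

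Genes with several probe sets did not always read alike. Tested on their own over all probe sets, 6 of the 53 member probe sets that were not the brightest were called between MTAP-positive and MTAP-negative cells, 5 in the inhibitor comparison and 13 when inhibitor-treated cells were set against MTAP-negative ones, where 14.8%, 10.3% and 30.7% of all probe sets were. The stretch of transcript read by each probe set was not given in the sources used here. At 206117_at, TPM1 read 7.81, 7.81 and 7.79 without MTAP, 7.11, 7.04 and 7.68 with it and 8.75, 8.51 and 8.60 with the inhibitor. That is 1.34 ± 0.16 with the inhibitor (adjusted p = 0.00252), where the brightest probe set gave 0.04 ± 0.11, and at 206116_s_at TPM1 was 0.67 ± 0.13 with MTAP (0.00905). At the mean of the probe sets, TPM1 passed with the inhibitor (0.40, adjusted p = 0.0176) and against MTAP-negative cells (0.48, 0.00277), and TPM4 with MTAP (0.51, 0.0468).

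CTTN, cortactin, which holds branches together, read 10.78, 11.00 and 10.89, then 10.69, 9.63 and 10.74, and with the inhibitor 10.42, 9.64 and 10.29 at its brightest probe set. Replicate 2 was the lowest of both MTAP-positive groups. At 214073_at it read 8.59, 8.49 and 8.86, then 8.66, 8.15 and 8.80, and then 9.54, 9.51 and 9.59. The inhibitor arrays were the highest there, at 1.01 ± 0.17 (adjusted p = 0.00806), and at 214074_s_at the change was 0.65 ± 0.14 (0.0208), where the brightest gave -0.24 ± 0.29.

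PTK2, the focal adhesion kinase, read 6.68, 7.06 and 6.68, then 6.60, 6.08 and 6.70, and with the inhibitor 7.66, 7.55 and 7.47 at 241453_at, a dim probe set. The untreated MTAP-positive mean, 6.46, lay under 6.64, the level that every deposited probe set reached on at least 3 arrays. So only a bound holds: counted from that level, the inhibitor arrays were at least 1.87-fold higher. The limma adjusted p of 0.00638 was for the deposited values and not for this bound. The brightest probe set gave -0.27 ± 0.10. MYL12A, a regulatory light chain, was 0.17 ± 0.09 with MTAP and -0.03 ± 0.09 with the inhibitor at its brightest probe set. At 1555978_s_at both means, 6.53 and 5.51, lay under 6.64, so no fold is given.

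**Figure D4:**
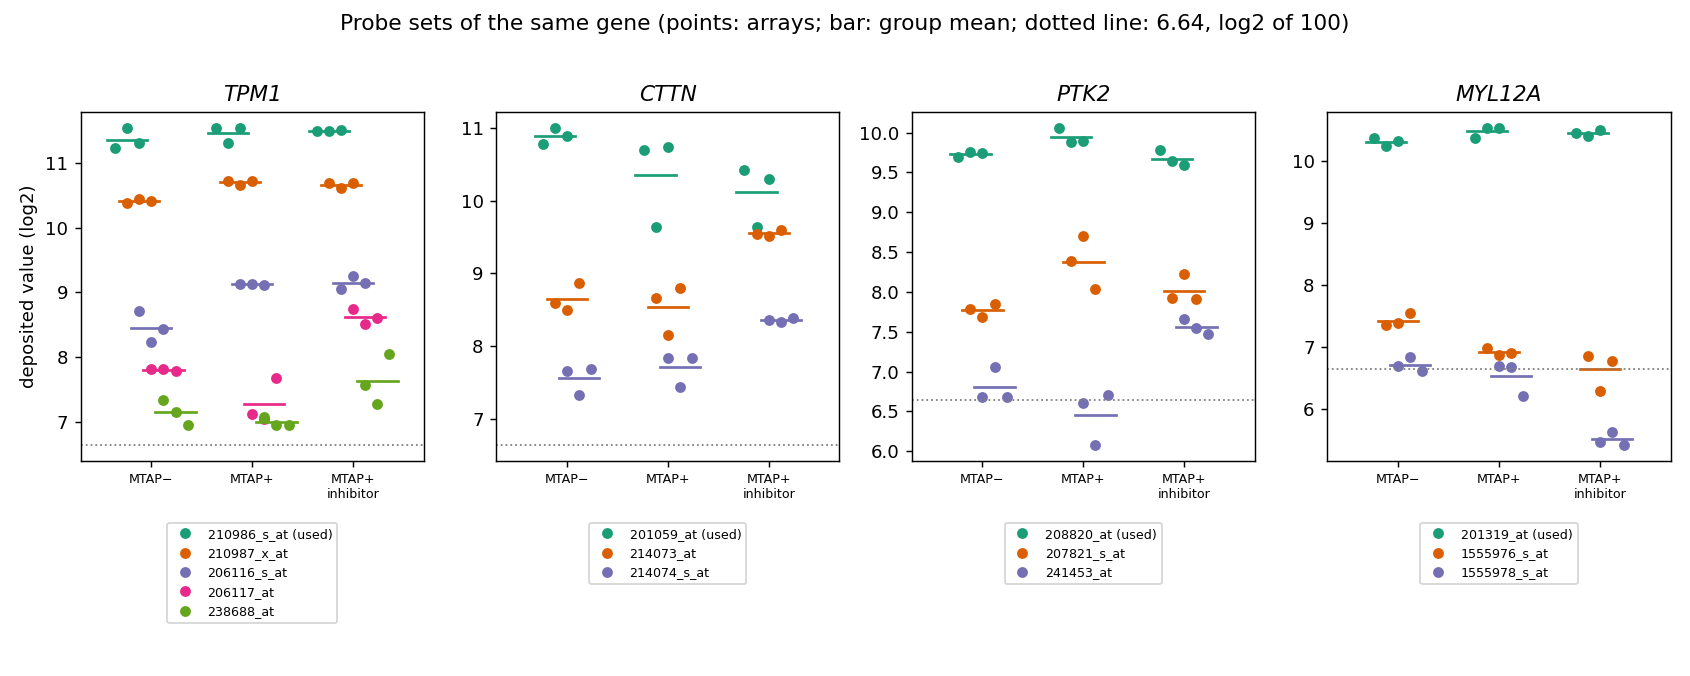
Log2 values (y axis) of every probe set with values of TPM1, CTTN, PTK2 and MYL12A on the 9 arrays by group (x axis), as points with the group mean. The brightest probe set of TPM1, PTK2 and CTTN shows no rise with the inhibitor, and a dimmer one of each does.

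Beyond the 45, 151 of 226 listed genes of the same pathway were tested, and 25 were higher and 11 lower between MTAP-positive and MTAP-negative cells, or 16.6% and 7.28%, beside 11.7% and 7.36% of all genes. Of the actin turnover list 4 of 21 rose and 1 fell: the membrane-skeleton adducin ADD3 (1.26 ± 0.16, adjusted p = 0.000664), the cofilin phosphatase SSH1 (0.90 ± 0.12) and the monomer-binding TMSB4X (0.89 ± 0.17) were higher and the capping subunit CAPZA1 was -0.57 ± 0.11. Of 14 formins and bundlers 5 rose, led by the formin DAAM1 at 1.48 ± 0.25, and of 34 adhesion adaptors and LIM proteins 7 rose and 3 fell, PDLIM7 (0.86 ± 0.15) and TGFB1I1 (0.77 ± 0.11) among them. In the Arp2/3 and WASP list 2 of 16 rose and 1 fell, with the WASP partner WIPF1 at 0.80 ± 0.13. The formin FMNL2 was 0.97 ± 0.30 and read 10.68, 10.87 and 9.40 without MTAP. Replicate 3, the lowest there, also had the most negative ACTB 5′ minus 3′ difference. The 151 genes are not given here with the ACTB covariate or without single arrays. With that covariate the calls over all genes in this comparison fell from 19.1% to 6.70%.

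With the inhibitor 6 of the 151 genes were higher and 7 lower, or 3.97% and 4.64%, below the 6.36% and 8.50% of all genes. The tumour suppressor DLC1 (0.94 ± 0.17, adjusted p = 0.00616) rose, and the membrane-curving BAIAP2 (-1.01 ± 0.15, 0.00295), the cytokinesis scaffold ANLN (-0.82 ± 0.20) and PDLIM7 (-0.69 ± 0.15) fell. Between inhibitor-treated and MTAP-negative cells 29 were higher and 24 lower, or 19.2% and 15.9%, near the 19.3% and 18.0% of all genes. DAAM1 was 1.76 ± 0.25 higher, TMSB4X 1.32 ± 0.17, DLC1 1.20 ± 0.17 and SSH1 1.07 ± 0.12. ANLN (-1.30 ± 0.20) and the coronin CORO1C (-0.99 ± 0.17) were lower.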

How the data were processed

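Affymetrix values on the log2 scale were deposited by the authors and made with RMA, per the submitters' processing notes, with version not given in the sources used here. Of 54675 probe sets, 17474 had values on every array and each of these reached log2 6.64 (intensity 100) on at least 3 arrays. Probe sets were named through the platform annotation, kept where they had 1 symbol, and the one with the highest mean over 9 arrays stood for each gene. A gene was tested above log2 7.96, the 40th percentile, on at least 3 of 9 arrays. Groups were compared with limma 3.58.1 in R 4.3.3 (lmFit and eBayes on all 9 arrays) with Benjamini-Hochberg adjustment over 7011 genes at 0.05; MTAP was left out of counts over all genes. Errors are SE, n = 3 arrays a group, and the p-values measure only the spread between these arrays.

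The members and lists were chosen with earlier results of these data known. Per-array values are given for the called members, both actins, the tropomyosins and the small GTPases, and at most 4 called genes per other list are named; the counts of 1 list are not reported here. Single members and probe sets outside this rule were chosen after their values were seen. Deviations of same-numbered arrays correlated at 0.381, 0.247 and 0.152 (MTAP-negative with MTAP-positive) and 0.767, 0.597 and 0.353 (MTAP-positive with inhibitor), so the numbers pair these arrays; MTAP-negative with inhibitor gave 0.315, 0.024 and 0.027. On simulated data with 100 changed genes per size among 7011, the test recovered 44% at a log2 change of 0.5 and 91% at 1, with 6 false calls. The simulation had independent noise, no pairing, no difference in RNA quality and a smaller share of changed genes than was called here. Its figures therefore do not give the recovery or the false calls on these arrays. Array correlations were 0.949 to 0.986 within groups and 0.902 to 0.975 between. A CCAAT search was added after the data were seen. 20 alternatives were run per comparison.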

Additional observations from a re-analysis of the deposited data

How the results depend on the processing

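Between MTAP-positive and MTAP-negative cells the 6 called genes became 3 when every probe set was tested (14.8% of all probe sets), 3 with only the 2 groups compared (10.7% of all genes), 10 with the replicate block and 0 with the ACTB covariate, and 1 to 6 when 1 array was left out. In the inhibitor comparison the 4 became 8 with the replicate block, 8 with array weights (26.1% of all genes), and 1 to 6 without 1 array. For inhibitor-treated against MTAP-negative cells the 11 became 17 with the replicate block (45.9% of all genes), a pairing the correlations of these arrays do not bear out, and 6 to 14 without 1 array. All genes called without 1 array ranged over 10.6% to 22.6%, 5.31% to 15.0% and 26.3% to 42.2% in the 3 comparisons. Turned in sign with a call at the mean of the probe sets were MYL12A, at -0.61 (limma adjusted p = 0.000516), and PTK2, at 0.31 (0.0204), both for inhibitor-treated against MTAP-negative cells; dimmer probe sets of both genes read differently from the brightest. The MYL12A mean includes 1555978_s_at, at 5.51 with the inhibitor and so under 6.64, and its size is not a measured fold. The remaining alternatives left each count of called genes within 1.5 times, though not always with the same genes. With array weights 6 genes were again called between MTAP-positive and MTAP-negative cells, where 30.9% of all genes were. EVL, EZR and TPM2 were then called, and VASP, RHOB and ROCK2 were not. Precision is limited by 3 arrays a group, and no detection calls were used.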
